A study of Homo sapiens with 4 samples.

Results

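Homologous recombination and Fanconi anaemia genes, with the checkpoint kinases that signal to them, were read on 4 arrays. The labels name all 4 as MDA-MB-231, a human breast cancer line of the triple-negative kind. The genes were taken from a list of 34 symbols, and every probe set whose annotation named exactly one of them was a member. This gave 89 probe sets of 30 genes, out of 44988 probe sets of 18132 genes. The other 4 listed genes, BRCA2, RBBP8, FANCA and FANCD2, were not analysed here. Of the 4 arrays, 2 came from cells carrying a stably integrated control shRNA and 2 from cells carrying a stably integrated shRNA against ELK3, an ETS-domain transcription factor (ELK3 KD cells, whose arrays are called knockdown arrays). The sources used here state that both groups were made with retroviral vectors and puromycin selection from a GFP- and luciferase-expressing MDA-MB-231 line. No reading of these insertions is given here, so this origin was not checked on the arrays. Each group was labelled as biological repeats 1 and 2. The sources used here do not say which established line each array came from, and the p-values here cover no more than the spread between these arrays, which may be technical. A difference caused by ELK3 loss, one between selected lines and one between the cells themselves, whose marker genes are given below, cannot be told apart. With 2 arrays a group, the smallest two-sided p of an exact permutation test is 0.333.

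Homologous recombination repairs a DNA double-strand break by copying the intact sister chromatid, and so works mainly in S and G2 phase. The MRN complex binds the broken ends, nucleases cut them back to single strands, and BRCA1, PALB2 and BRCA2 help these strands invade the intact copy. The Fanconi pathway removes crosslinks between DNA strands: its core complex adds ubiquitin to the FANCD2-FANCI pair, and later steps hand the break to recombination. ATM and ATR are the kinases that sense breaks and stalled forks, with CHEK2 and CHEK1 as their main downstream kinases. Inherited loss of several of these genes predisposes to breast cancer.

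All values are log2 intensities after RMA (robust multi-array average, which corrects background, equalises the distributions of the arrays and summarises each probe set). Array medians over all probe sets lay between 6.23 and 6.27. ELK3 was lower in both knockdown arrays, at 8.34 and 8.33 against 10.85 and 10.82 in control arrays, a difference of -2.50 (standard error 0.07, adjusted p = 3.57e-05 from limma). Of 7 genes that mark MDA-MB-231 cells, all 7 lay above background in control arrays and 6 in knockdown arrays. The other one, the receptor gene AXL, read 11.98 and 11.95 in control and 4.38 and 4.08 in knockdown arrays. Of the 6, CD44 (difference -3.44), CAV1 (-3.01), EGFR (-2.11) and VIM (-1.02) were called lower as well. KRT8 was called higher, by 1.06, and KRT18 was not called (0.22). CDKN2A, of the stretch of 9p21 known to be deleted in MDA-MB-231, read 5.10 and 4.61 in control and 11.33 and 11.43 in knockdown arrays. CDKN2B and KLHL9, also of 9p21, were higher by 3.94 and 6.61, from control means of 3.03 and 2.90. MTAP, of 9p21 too, was called lower at its brightest probe set (-0.45) and higher at its others, by 2.98 to 4.55. Of 12 markers of HEK293 cells, a list partly drawn from genes already known to rise here, 8 were higher and 0 lower, and their mean level was 5.25 to 5.53 in control and 8.29 to 8.32 in knockdown arrays. The part of such differences between the cells in the results below was not tested. As a guide to background, 368 probe sets of olfactory receptor genes, which breast cells are not known to use, had a 95th percentile of 5.69.

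Each gene was read from its brightest probe set, and limma gave the comparison, with p-values adjusted by Benjamini-Hochberg over all genes. At an adjusted p under 0.05, 12 of the 30 genes rose in ELK3 KD cells, 8 fell and 10 did not pass. That is 66.7% of the genes, where 49.5% of all 18132 genes were called (26% higher and 23.5% lower) and 61.9% of the 11649 genes whose mean lay above the background guide. With each array centred on its median, the higher share of all calls went from 52.6% to 36.6%, and the members gave 11 higher and 9 lower. The share called was close to that of genes of similar brightness. The median difference was 0.24, against -0.05 over all genes and 0.003 over the 11649 genes above the background guide. The median size without sign was 0.48, against 0.30 over all genes and 0.43 over those above the guide. The groups did not overlap for 18 genes that were higher and 10 that were lower in knockdown arrays, beside 76.2% of all genes (35.4% higher and 40.8% lower). Of the 11649 genes above the guide, 5084 were higher and 4807 lower without overlap. In both groups 29 of the 30 genes lay above the background guide. The exception was RAD51B. Of the 30 genes, 7 were called and differed by 1 or more on the log2 scale, where 16.4% of all genes were called at that size. Of the 11649 genes above the guide, called or not, 1354 were higher and 1060 lower by 1 or more.

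**Figure D1:**
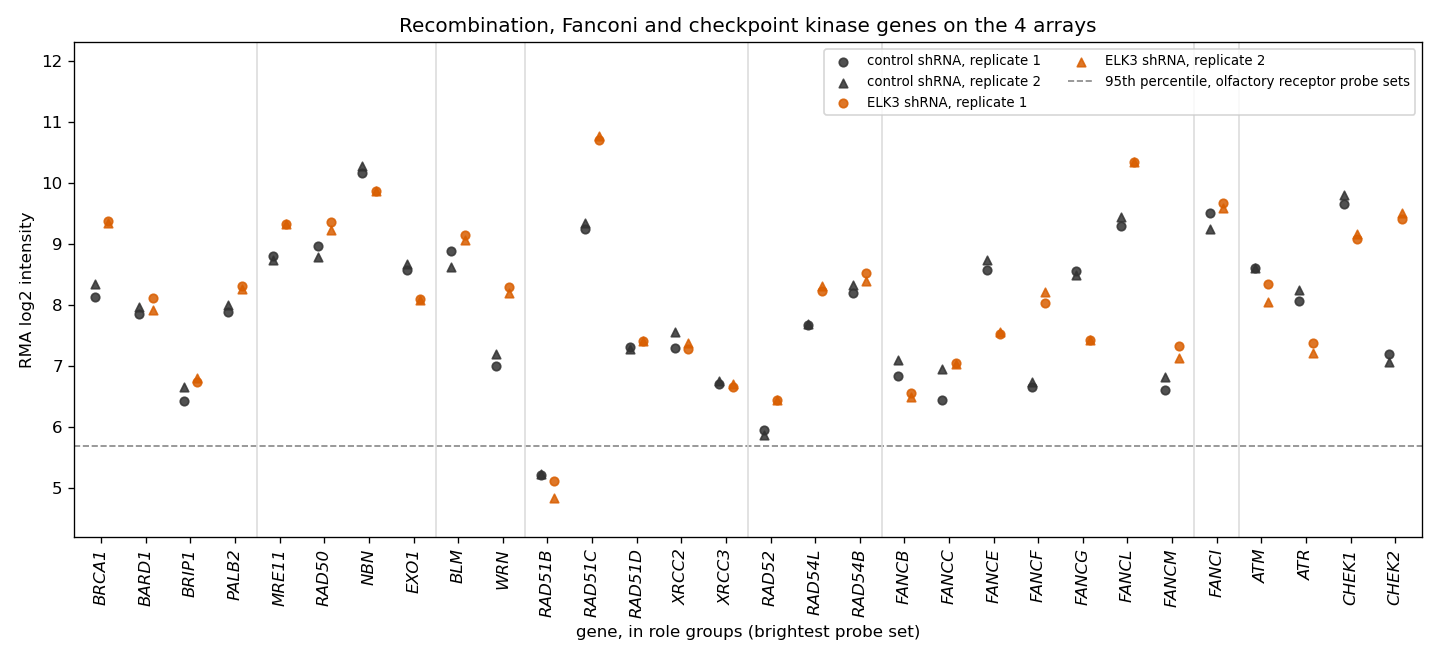
RMA log2 intensity (y axis) of the brightest probe set of each of the 30 genes (x axis, vertical lines separate role groups). Black symbols are the 2 control shRNA arrays, orange symbols the 2 ELK3 shRNA arrays, circles replicate 1 and triangles replicate 2. The dashed line is the background guide, 5.69, from olfactory receptor probe sets. CHEK2 went from 7.19 and 7.07 to 9.41 and 9.50, and RAD51B is the only gene below the line.

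The 4 checkpoint kinases were all called, 1 higher and 3 lower. CHEK2, which halts the cycle and phosphorylates p53 and BRCA1 after breaks, showed the largest change of all members. It read 7.19 and 7.07 in control arrays and 9.41 and 9.50 in knockdown arrays, a difference of 2.32 (standard error 0.09, adjusted p = 6.68e-05 from limma), or 4.99-fold. By size it ranked 757 of 18132 genes. Its other probe set went from 5.90 and 5.79 to 7.21 and 7.17, a difference of 1.34. Both probe sets are of the kind marked as able to bind other transcripts, and RefSeq names 6 pseudogenes of CHEK2, so their share of the signal is uncertain. ATM, the kinase upstream of CHEK2, read 8.60 and 8.60 in control and 8.34 and 8.05 in knockdown arrays, a difference of -0.40 (standard error 0.12, adjusted p = 0.0396). Its call ended without control replicate 1 (adjusted p = 0.142), without control replicate 2 (adjusted p = 0.136) or without knockdown replicate 2 (difference -0.26, adjusted p = 0.158), and with the replicate block (adjusted p = 0.0543). The call of ATM also ended in Student's t-test. Of the 5 ATM probe sets 4 were called lower, by -0.40 to -0.60, and 1 higher, by 0.38. Of the 4 that were lower, 1 lay below the background guide in both groups, at 4.37 and 4.29 in control and 3.85 and 3.90 in knockdown arrays, and the one that was higher had control readings of 5.47 and 5.74, a mean under the guide.
ATR, which responds to single-stranded DNA at stalled forks, fell more. It read 8.07 and 8.24 in control and 7.37 and 7.20 in knockdown arrays, a difference of -0.87 (standard error 0.10, adjusted p = 0.00196), from a single probe set. CHEK1, the kinase downstream of ATR, went from 9.65 and 9.80 to 9.08 and 9.15, a difference of -0.61 (standard error 0.09, adjusted p = 0.00412). All 6 CHEK1 probe sets were called lower, by -0.29 to -1.06. The 2 effector kinases thus lay on opposite sides of 0 at every probe set, and their 95% intervals, 2.10 to 2.54 for CHEK2 and -0.84 to -0.38 for CHEK1, were far apart.

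Of the 4 measured genes of the BRCA complexes 2 were called, both higher, and of these BRCA1 kept its call in all 13 alternatives. BRCA1, a ubiquitin ligase subunit that favours repair by recombination, read 8.13 and 8.35 in control and 9.37 and 9.34 in knockdown arrays. The difference was 1.12 (standard error 0.10, adjusted p = 0.000758 from limma), or 2.17-fold. All 5 of its probe sets were called higher, by 0.55 to 1.12, although 1 of them lay below the background guide in both groups. The brightest is of the kind marked as able to bind other transcripts, and RefSeq names 1 pseudogene of BRCA1. Of the BRCA1 probe sets without this mark, the one above the guide in both groups gave 0.55. BARD1, the partner that BRCA1 needs for its ligase activity, read 7.86 and 7.97 in control and 8.12 and 7.91 in knockdown arrays, so the groups overlapped. Its difference of 0.10 had a 95% interval of -0.16 to 0.37, and its adjusted p was 0.444. The interval lies below that of BRCA1, which ran from 0.86 to 1.37.
PALB2, which links BRCA1 to BRCA2, rose modestly, from 7.88 and 8.0 to 8.31 and 8.26 (difference 0.35, standard error 0.08, adjusted p = 0.0203). This call ended without control replicate 1 (adjusted p = 0.0596) or either knockdown replicate (adjusted p = 0.134 and 0.097), and when each array was centred on its median (difference 0.21, adjusted p = 0.101). BRIP1, a helicase that binds BRCA1, read 6.43 and 6.66 in control and 6.74 and 6.80 in knockdown arrays, a difference of 0.22 that did not pass (adjusted p = 0.135). Its second probe set gave 0.02.

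The 3 subunits of the MRN complex split. MRE11, the nuclease of the complex, went from 8.80 and 8.74 to 9.33 and 9.33, a difference of 0.56 (standard error 0.07, adjusted p = 0.00273 from limma), with 3 of its 5 probe sets called higher and none lower. RAD50, the ATPase that bridges the ends, went from 8.96 and 8.79 to 9.36 and 9.23 (difference 0.42, adjusted p = 0.0186), which was no longer called without control replicate 2 (adjusted p = 0.0637) or either knockdown replicate (adjusted p = 0.128 and 0.071). NBN, which recruits ATM, fell from 10.16 and 10.28 to 9.87 and 9.87 (difference -0.35, adjusted p = 0.0172). All 5 NBN probe sets had negative differences, from -0.07 to -0.35, with 2 called lower, and the call of the brightest ended without either knockdown replicate (adjusted p = 0.11 and 0.106). With the mean of all 5 the difference was -0.24 and was not called (adjusted p = 0.0659). EXO1, the exonuclease that extends resection, fell from 8.58 and 8.67 to 8.09 and 8.07, a difference of -0.54 with adjusted p = 0.00353 that stayed under 0.05 in all 13 alternatives.

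An ETS-type element stood in the promoters of the nuclease MRE11, of RAD50 and of PALB2, and these are shown because ELK3 belongs to the ETS family. RefSeq promoters (GRCh38.p14) of 26 of the 30 genes were searched, each 300 bases long from 250 before to 50 past the gene start, on both strands. The element CCGGAAGT, or ACTTCCGG on the other strand, was found in 3 of these 26, which is 11.5%, and in 4.44% of 27305 promoters. The start RefSeq gives for BRCA1 is an outer one, so its window, counted here among the 26, may not be the promoter in use. All 3 genes with the element were among the 11 searched that rose. It was in 0 of 7 that fell and 0 of 8 that were not called. This split holds for the exact 8 letters only. Without the last letter of CCGGAAGT, the element (CCGGAAG or CTTCCGG) also stood before the starts of ATM and ATR, which fell. It stood before those of BLM and RAD51D, which were not called, as well. None of the 4 matches of the full element overlapped any of the other 6 motifs searched. The 250 bases before the starts of PALB2, MRE11 and RAD50 are printed 5′ to 3′ on the strand of the gene, with the full element in capitals.
PALB2, chr16:23641311-23641560 (minus strand): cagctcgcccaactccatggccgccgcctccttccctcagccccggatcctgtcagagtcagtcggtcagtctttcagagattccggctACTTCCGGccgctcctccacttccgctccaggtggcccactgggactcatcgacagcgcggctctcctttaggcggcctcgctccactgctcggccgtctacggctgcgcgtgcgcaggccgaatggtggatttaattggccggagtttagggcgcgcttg
MRE11, chr11:94493845-94494094 (minus strand): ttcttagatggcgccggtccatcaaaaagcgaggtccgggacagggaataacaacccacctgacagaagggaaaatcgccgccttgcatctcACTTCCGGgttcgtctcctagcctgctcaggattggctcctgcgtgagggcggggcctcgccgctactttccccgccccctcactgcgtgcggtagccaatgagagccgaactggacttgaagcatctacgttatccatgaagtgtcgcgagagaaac
RAD50, chr5:132556727-132556976 (plus strand): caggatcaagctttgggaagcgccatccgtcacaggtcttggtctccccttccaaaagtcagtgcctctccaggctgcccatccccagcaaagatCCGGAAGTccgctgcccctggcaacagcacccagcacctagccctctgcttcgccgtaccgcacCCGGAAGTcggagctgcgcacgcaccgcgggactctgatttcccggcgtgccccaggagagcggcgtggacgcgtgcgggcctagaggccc
Of the 3 genes, MRE11 kept its call in every alternative, while those of PALB2 and RAD50 ended in some. A match describes letters in this window and says nothing of binding. The E2F element TTTCCCGC or GCGGGAAA was in 2 of the 26 promoters, those of FANCC and XRCC2, neither of them called (1.66% of all promoters). The box CCAAT or ATTGG was in 11 of the 26, or 42.3%, against 35.7% of all promoters. It was in 6 of 11 genes that rose, 2 of 7 that fell and 3 of 8 not called. The GC box GGGGCGGG or CCCGCCCC was in 12, or 46.2%, against 22.7%, with 3 of 11 that rose, 4 of 7 that fell and 5 of 8 not called. Whether the splits of the motifs by direction differ was not tested. The variant E2F element TTTGGCGC was in 0 of the 26 (0.659% of all), the element TTTGAA in 3 (15.4% of all) and the NRF1 element GCGCATGC in 1 (3.27% of all). Promoters of 2 genes that moved in opposite directions are shown for comparison, CHEK2 with 3 CCAAT boxes and 1 GC box, and FANCE, of the Fanconi core complex, with 2 GC boxes that overlap each other (capitals).
CHEK2, chr22:28741821-28742070 (minus strand): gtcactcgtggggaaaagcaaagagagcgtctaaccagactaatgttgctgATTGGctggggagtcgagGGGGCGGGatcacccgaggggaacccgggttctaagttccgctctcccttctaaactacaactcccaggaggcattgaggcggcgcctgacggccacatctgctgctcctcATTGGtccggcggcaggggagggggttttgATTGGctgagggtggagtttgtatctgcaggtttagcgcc
FANCE, chr6:35452088-35452337 (plus strand): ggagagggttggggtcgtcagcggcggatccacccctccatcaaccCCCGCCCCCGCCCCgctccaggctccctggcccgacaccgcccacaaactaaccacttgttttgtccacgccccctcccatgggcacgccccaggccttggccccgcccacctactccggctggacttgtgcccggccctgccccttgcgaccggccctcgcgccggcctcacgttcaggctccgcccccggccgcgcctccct

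Of RAD51B, RAD51C, RAD51D, XRCC2 and XRCC3, related genes whose proteins work together in recombination, RAD51C alone was called. It read 9.24 and 9.34 in control and 10.71 and 10.77 in knockdown arrays, a difference of 1.45 (standard error 0.08, adjusted p = 0.000192 from limma), or 2.73-fold. Another of its probe sets gave 1.47 and another 0.60, all called. The last probe set read 3.29 and 3.31 in control and 3.59 and 3.02 in knockdown arrays, within the background range, so it could show no change, and RAD51C was uncalled where that probe set stood for the gene.
The partners of RAD51C differed less. RAD51D went from 7.30 and 7.28 to 7.41 and 7.42 (difference 0.12, 95% interval -0.06 to 0.30), and 1 of its 5 probe sets was called higher, by 0.59. XRCC2 (difference -0.10, interval -0.39 to 0.19) and XRCC3 (difference -0.05, interval -0.24 to 0.14) did not pass. RAD51B lay below the background guide at all 4 probe sets, with its brightest at 5.21 and 5.23 in control and 5.11 and 4.84 in knockdown arrays, so background limits any difference. The upper ends of the intervals of RAD51D, XRCC2 and XRCC3 lay below 1.24, the lower end of the interval of RAD51C.
RAD52, which anneals complementary strands, was dim. It went from 5.94 and 5.86 to 6.44 and 6.44 (difference 0.54, adjusted p = 0.0034), but only 2 of its 12 probe sets were called, both higher, 1 of them from a control mean under the background guide. With the mean of all 12 the difference was 0.23 (adjusted p = 0.05003). RAD54L, a motor protein that drives strand exchange, rose from 7.67 and 7.69 to 8.22 and 8.30 (difference 0.59, adjusted p = 0.00247). Its relative RAD54B went from 8.19 and 8.32 to 8.52 and 8.39, a difference of 0.20 that did not pass (adjusted p = 0.134).
Of the RecQ helicases, WRN, which acts at stalled forks and telomeres, went from 6.99 and 7.20 to 8.29 and 8.20. The difference was 1.15 (standard error 0.10, adjusted p = 0.000754), or 2.22-fold. BLM, which dissolves recombination intermediates, read 8.89 and 8.62 in control and 9.15 and 9.06 in knockdown arrays (difference 0.35, adjusted p = 0.0568), and it passed in 7 of 13 alternatives.

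Genes of the Fanconi core complex moved in both directions. Of its 7 measured subunits and anchor genes 3 rose, 3 fell and 1 did not pass. FANCF, an adaptor of the complex, went from 6.66 and 6.74 to 8.04 and 8.21, a difference of 1.42 (standard error 0.09, adjusted p = 0.000296 from limma). Its other 2 probe sets were called higher too, 1 by 0.89 and 1 whose control mean of 5.67 lay under the background guide, where a difference has no exact size. FANCL, the ubiquitin ligase of the complex, went from 9.30 and 9.43 to 10.34 and 10.34, a difference of 0.97 (adjusted p = 0.000661) that 2 further probe sets shared at 1.09 and 0.50. FANCM, the translocase that anchors the complex to DNA, rose from 6.61 and 6.81 to 7.33 and 7.12 (difference 0.52, adjusted p = 0.0179), with all 3 probe sets called higher, although 1 of the others lay below the background guide in both groups and 1 in control arrays. The call of its brightest probe set ended without control replicate 1 (adjusted p = 0.0831) or knockdown replicate 1 (adjusted p = 0.116).
FANCE, which joins the core complex to FANCD2, fell instead. It read 8.57 and 8.74 in control and 7.52 and 7.55 in knockdown arrays, a difference of -1.12 (standard error 0.09, adjusted p = 0.000538), or 2.18-fold lower, and another probe set gave -1.18. The third was called lower as well, with its knockdown mean of 5.49 under the background guide. FANCG, another scaffold subunit, went from 8.56 and 8.50 to 7.43 and 7.43, a difference of -1.10 (standard error 0.07, adjusted p = 0.00032), or 2.14-fold lower. FANCB, a partner of the ligase FANCL, went from 6.83 and 7.10 to 6.56 and 6.50 (difference -0.44, adjusted p = 0.028), which was no longer called without control replicate 2 (difference -0.30, adjusted p = 0.0547) or either knockdown replicate (adjusted p = 0.12 and 0.155) and with the replicate block (adjusted p = 0.0534). FANCC read 6.45 and 6.94 in control and 7.04 and 7.03 in knockdown arrays, so its wide control spread left a difference of 0.34 uncalled (adjusted p = 0.167). The difference was 0.09 without control replicate 1, and 0.59 and called without control replicate 2. Its other 2 probe sets were called higher, by 0.70 and 0.51, the first from a control mean under the background guide.
FANCI, the measured partner of the pair that the core complex ubiquitinates, gave no single answer. Its brightest probe set read 9.50 and 9.25 in control and 9.67 and 9.59 in knockdown arrays (difference 0.26, 95% interval -0.03 to 0.54, adjusted p = 0.117). A second gave 0.07, and the third fell from 9.34 and 9.01 to 8.56 and 8.58, a difference of -0.61 (adjusted p = 0.0139 from limma over probe sets).

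**Figure D2:**
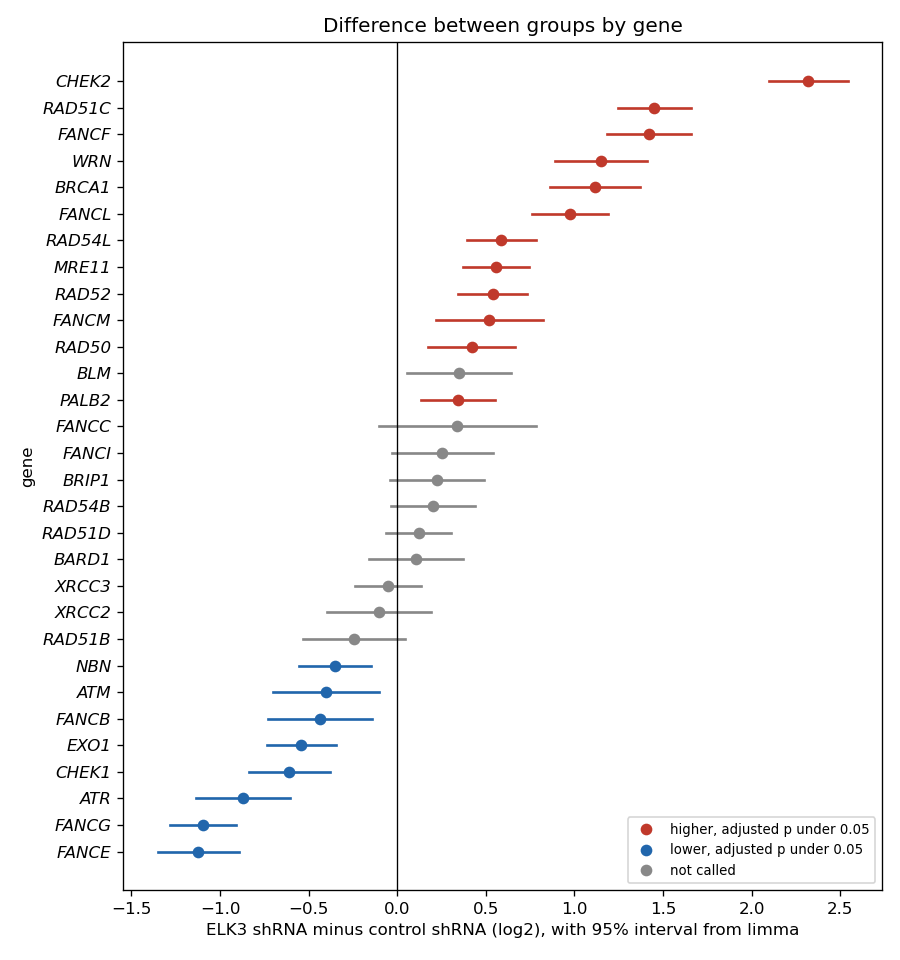
Difference ELK3 shRNA minus control shRNA on the log2 scale (x axis) for each of the 30 genes (y axis), with bars for the unadjusted 95% interval from limma. Red genes were called higher, blue genes lower and grey genes were not called at an adjusted p under 0.05. Values run from -1.12 for FANCE to 2.32 for CHEK2, and the interval of BLM (0.05 to 0.64) excludes 0 although its adjusted p is 0.0568.

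At the level of single probe sets, 32 of the 89 were called higher, 21 lower and 36 were not called, where 48.9% of all 44988 probe sets were called. Of the 19 genes with more than 1 probe set, 7 had every probe set called in 1 direction, 9 had some called and all of these in 1 direction, and 2 had none called. ATM was the only gene with calls in both directions. The 7 genes called throughout were BRCA1, FANCE, FANCF, FANCL, FANCM, CHEK1 and CHEK2. Among these, BRCA1, FANCE, FANCF and FANCM each had probe sets below the background guide in 1 or both groups. Probe sets of a gene can detect different transcripts, and where each lies in its gene was not analysed here.

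**Figure D3:**
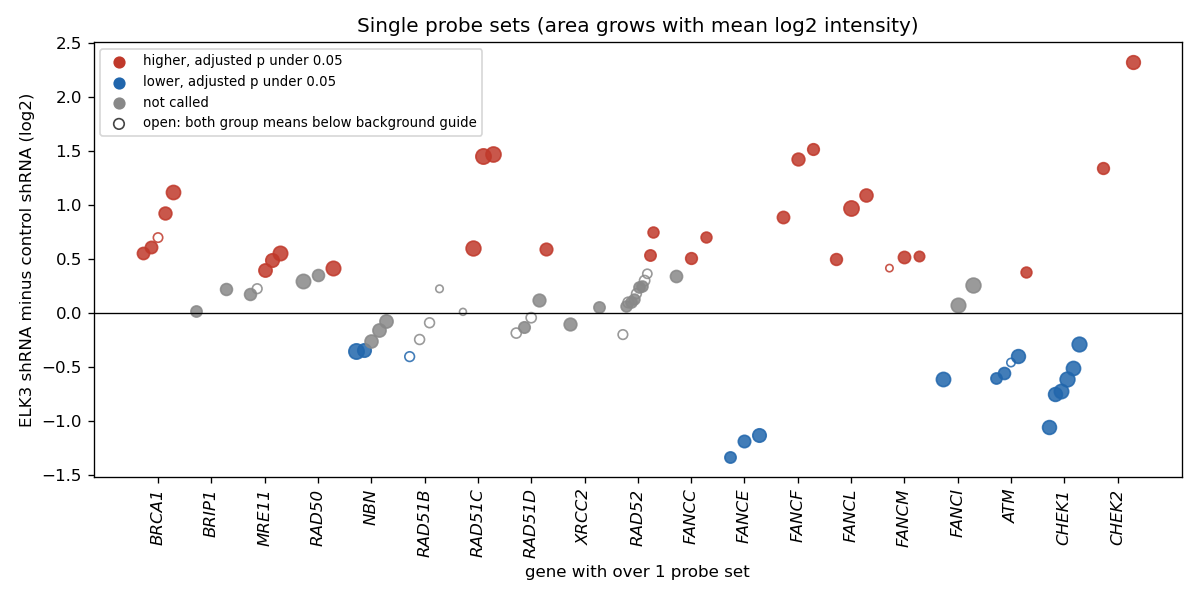
Difference ELK3 shRNA minus control shRNA on the log2 scale (y axis) for single probe sets of the 19 genes with more than 1 (x axis). Colours mark calls at an adjusted p under 0.05 over all probe sets, open circles mark probe sets with both group means under the background guide, and circle area grows with the mean log2 intensity. The 6 probe sets of CHEK1 lie between -1.06 and -0.29, and those of ATM lie on both sides of 0.

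Of 73 measured genes in 4 lists of further recombination, Fanconi, break signalling and replication checkpoint genes, 29 rose and 16 fell (61.6% called, median 0.18), beside 49.5% of all genes and 61.9% of those above the background guide. With each array centred on its median, 25 were higher and 25 lower. Among 26 recombination genes 9 rose and 5 fell. RMI2 and RMI1, partners of BLM, moved apart, RMI2 from 8.15 and 8.01 to 9.90 and 9.74 (difference 1.74) and RMI1 from 9.55 and 9.41 to 8.17 and 8.07 (difference -1.36), while MCM9, a helicase of recombination, rose by 1.16. Of 19 further Fanconi genes 10 rose and 3 fell, with a median of 0.44. The crosslink nuclease gene ERCC4 went from 6.51 and 6.54 to 8.44 and 8.30 (difference 1.85), FAAP20, a core complex partner, rose by 1.27 and MAD2L2, a subunit of a translesion polymerase, by 1.15.
Of 14 break signalling genes 7 fell and 4 rose, with a median of -0.32. The largest changes were falls of ABRAXAS1, the scaffold of a complex that holds BRCA1 at breaks (difference -0.89), of PAXIP1 (difference -0.87) and of RIF1, an inhibitor of resection (difference -0.87). Of 14 replication checkpoint genes 6 rose and 1 fell, among them TIMELESS, which protects forks, by 0.87, CDC25A, a phosphatase that CHEK1 and CHEK2 target, by 0.64, and WEE1, an inhibitory kinase of the cycle, by 0.62. Of 15 end joining genes, the main alternative to recombination, 5 rose and 2 fell (46.7% called, median 0.06). DCLRE1C, the end-trimming nuclease Artemis, went from 8.38 and 8.50 to 7.09 and 7.18, while PRKDC, the catalytic kinase of end joining, rose by 0.71 and its DNA-end partner XRCC6 by 0.70.

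Recombination genes are made mainly in S and G2 phase, and cell cycle genes differed between the groups as well. Of 42 replication genes 24 rose and 5 fell (69% called, beside 61.9% of all genes above the background guide), with a median of 0.36. Their mean level was 9.50 to 9.57 in control and 9.88 in both knockdown arrays. POLA1, a subunit of the priming polymerase, went from 9.05 and 9.16 to 10.79 and 10.74, the licensing factor CDT1 rose by 1.48 and POLA2 by 1.43. Of 37 mitotic genes 21 fell and 6 rose (73% called), with a median of -0.44. Their mean level was 10.20 to 10.24 in control and 9.83 to 9.84 in knockdown arrays. ANLN, a scaffold of the cleavage furrow, changed by -1.51 and ECT2, an activator of furrow formation, by -1.46, whereas HMMR, a spindle protein, read 9.20 and 7.97 in control and 11.19 and 11.10 in knockdown arrays. The mean level of the 30 members was 7.87 to 7.95 in control and 8.13 to 8.17 in knockdown arrays. The part of these cell cycle differences in the member values was not tested, and whether the lists differ from each other was not tested either. Bulk arrays cannot tell apart fewer cells in a phase from less RNA per cell.

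**Figure D4:**
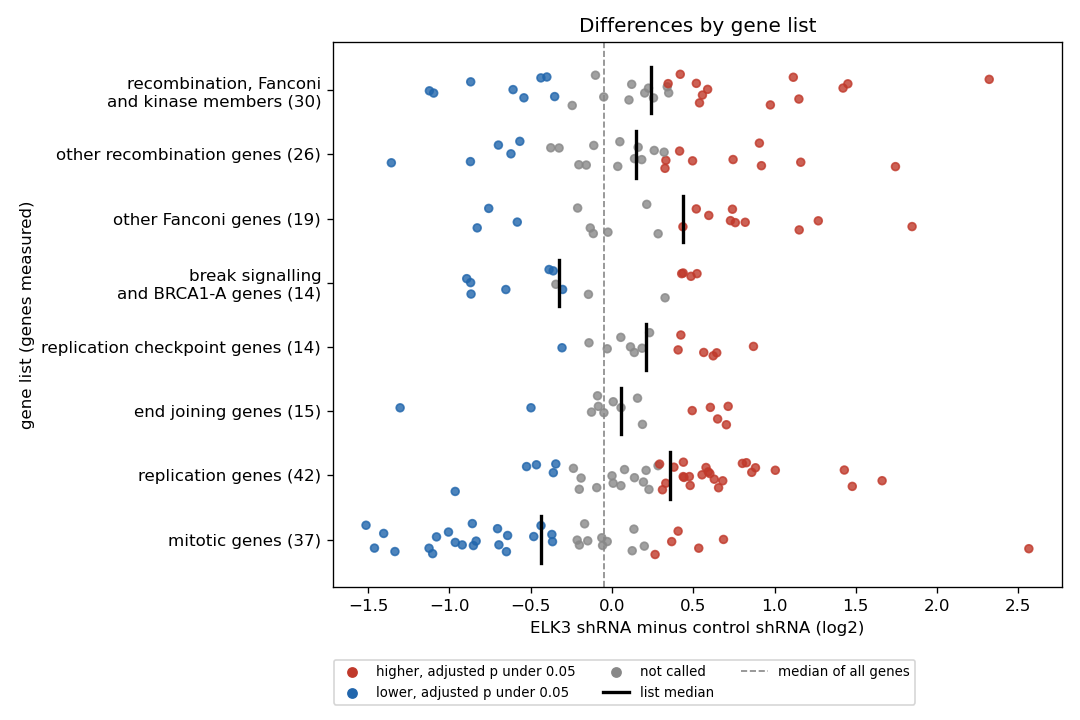
Difference ELK3 shRNA minus control shRNA on the log2 scale (x axis) for the genes of 8 lists (y axis, with the number of genes measured), each point a gene coloured by its call, with a black bar for the list median and a dashed line for the median of all genes (-0.05). The members spread from -1.12 to 2.32 around 0.24, replication genes lie mostly to the right and mitotic genes mostly to the left of 0.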

How the data were processed

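Total RNA of 2 control shRNA and 2 ELK3 shRNA cultures was hybridised to 1 array each. The authors deposited log2 intensities of 49395 probe sets, and the submitters' processing notes name RMA and Affymetrix Expression Console (versions not given in the sources used here). An Illumina BeadChip is named in the paper's methods, but probe sets here carry Affymetrix names. Quantile normalization hides a change in total RNA per cell, and RMA compresses dim values. All 4 value columns were used, and scanner files were not used here.

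Gene names came from the annotation of the platform, and symbols were updated through RefSeq (GRCh38.p14) (44961 of 44988 single-gene probe sets matched). A gene was read from its brightest probe set, with no filter. The comparison used lmFit and eBayes of limma 3.58.1 (R 4.3.3) with no block, adjusted by Benjamini-Hochberg over 18132 genes, or over 44988 probe sets, at 0.05. The fit was tested on simulated data. Figures used matplotlib 3.10.9.

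Members and lists were chosen with earlier results of these data known. Every member was placed in its role group. Values of all 4 arrays were due for called members differing by 1 or more, the 3 largest rises and falls, and the core BRCA, Fanconi and kinase genes. Up to 3 called genes per other list, above background in both groups, were named by size of change. AXL, BARD1 and the other members given with array values beyond that rule were added with their values known. So were the further MDA-MB-231 markers named and CDKN2B, KLHL9 and MTAP. The alternatives were other probe set summaries, filters, scalings, variance priors and tests, a replicate block, and each array left out.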

Additional observations from a re-analysis of the deposited data

How the results depend on the processing

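Of the 20 called genes, 10 kept their call in all 13 alternatives and 10 lost it in 1 or more, and no called gene changed sign. Leaving out each array in turn gave 9 to 13 genes higher and 5 to 7 lower, 15 to 31 probe sets higher and 11 to 19 lower, a median difference of 0.13 to 0.28, 3080 to 4388 of all genes higher and 2430 to 3976 lower, 17 to 26 other pathway genes higher and 9 to 18 lower, 16 to 23 replication genes higher and 18 to 21 mitotic genes lower. Only 5 genes were called lower without knockdown replicate 2.

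For its array counts the paper states a fold-change cutoff and no test. The t-test that its methods name (Student's) put 17 of the 30 genes under the methods' threshold before adjustment. The share of all genes under it in this test is not given here, so this count has no background beside it. Before adjustment, limma put 21 of the 30 and 10102 of all 18132 genes under the same threshold. After Benjamini-Hochberg adjustment Student's t-test called 9 genes higher and 3 lower, 15 and 7 probe sets, and 2576 and 2086 of all genes. Of the other pathway genes it called 15 and 10, against 29 and 16 by limma. ATR (adjusted p = 0.0594) and CHEK1 (adjusted p = 0.063) lost their calls in Student's t-test alone. ATM, FANCB, FANCM, NBN, PALB2 and RAD50 lost theirs in this test and in other alternatives. Centring each array on its median over genes moved every difference by -0.14, since the brightest probe sets of genes had medians of 6.61 and 6.66 in control and 6.77 and 6.78 in knockdown arrays. All genes then gave 3883 higher and 6724 lower calls (36.6% of calls higher, against 52.6%), other pathway genes 25 higher and 25 lower, and the members 11 higher and 9 lower with a median of 0.10. BARD1 and RAD51D, both uncalled, turned to -0.03 and -0.02, and RAD51B was called lower (-0.38, adjusted p = 0.0287). With the mean of all probe sets of a gene the median was 0.16. With probe sets marked as shared or variant left out, RAD51C was read from its background-level probe set and gave 0.01.

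The replicate numbers did not pair the arrays (correlation of same-numbered deviations 0.01 over genes). With the replicate block 13 genes were higher and 6 lower: ATM and FANCB lost their calls, BLM gained one, and no other call of a member changed. Only 4 arrays limit the precision, and background limits RAD51B.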

Other observations

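Genes of excision and mismatch repair, which mend lesions on 1 strand, also moved in both directions in ELK3 KD cells. Of 11 measured nucleotide excision repair genes 5 rose and 2 fell (63.6% called, median 0.39), beside 61.9% called of all genes above the background guide. DDB2, which recognises ultraviolet lesions, read 6.92 and 7.44 in control and 9.74 and 9.55 in knockdown arrays, a difference of 2.46 (standard error 0.19, adjusted p = 0.000499 from limma). XPC, another lesion sensor, rose by 1.45, and the helicase gene ERCC2 changed by -1.26. Of 5 measured mismatch repair genes 2 rose and 2 fell (80% called). MSH3 rose by 1.41, with control arrays apart at 7.85 and 7.33, MSH6 rose by 0.63, and PMS1 changed by -0.89.

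Of 20 genes of the E2F family and of the DREAM and MuvB complexes, which govern cell cycle transcription, 6 rose and 6 fell. That is 60% called, beside 61.9% of all genes above the background guide. RBBP4, a histone chaperone in MuvB, went from 9.86 and 9.87 to 11.33 and 11.45, MYBL2, an activator of G2 genes, rose by 1.43, and E2F7, a repressor of S phase genes, changed by -1.32. The spread between replicates of the 30 recombination, Fanconi and kinase genes was wider in control than in knockdown arrays for 23 genes, with median SDs of 0.09 and 0.05 over 2 arrays each.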
